A study of Mus musculus with 21 samples.

Results

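The S100 calcium-binding proteins described here are the products of 8 genes, S100a1, S100a4, S100a6, S100a8, S100a9, S100a10, S100a11 and S100a13, out of 20018 genes with a named probe on the arrays. The 8 genes were chosen by symbol, through the RefSeq accession of each probe, and they were read by 10 probes. S100a1 and S100a4 have a second probe each. For them the probe with the highest mean level over all 21 arrays was used, and the other served as a check.

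S100 proteins are small proteins with paired EF-hand motifs that bind calcium, and most act as dimers that change shape on binding and then dock onto partner proteins. S100a8 and S100a9 form calprotectin, a heterodimer stored in the cytosol of neutrophils and monocytes that binds zinc and manganese and, once released, acts on Toll-like receptor 4. S100a4 and S100a6 bind cytoskeletal and other target proteins, S100a10 and S100a11 bind annexins, and S100a13 takes part in the export of proteins that lack a signal peptide. Bach1 and Bach2 are related repressors of transcription of the basic leucine zipper family. They bind DNA with small Maf proteins.

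The study asked how these repressors act on B cell development and on myeloid genes, and measured RNA on single-colour mouse arrays in 3 experiments, with 7 groups of 3 arrays each. The first compared common lymphoid progenitors (CLPs), sorted from bone marrow, of wild-type (WT) mice and of compound Bach1/Bach2-deficient (DD) mice; each array held RNA of pooled mice. In the second, multipotent progenitors (MPPs) from 4 pooled WT mice per experiment were first kept overnight in SCF (50 ng/ml), IL-6 (10 ng/ml) and IL-3 (5 ng/ml), infected with a retrovirus for GFP alone (control vector, MSCV) or for Bach2 with GFP (Bach2 vector), grown for 2 days under multilineage conditions and sorted for GFP. A further group with the Bach2 vector had 24 h of multilineage culture and 6 days of B-lineage culture before a sort for GFP and for B220, an isoform of CD45 on B-lineage cells, so it differs from the other vector groups in culture and gate as well. In the third, follicular B cells (FoB) of WT and Bach2-knockout (Bach2KO) mice were stimulated for 24 h with 10 ug/ml anti-IgM Fab fragment, which engages the B-cell receptor. The sources used here give neither age nor sex, and every group carries its endogenous Bach genes except as stated.

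All 8 genes lie on chromosome 3, in the order S100a1, S100a13, S100a4, S100a6, S100a8, S100a9, S100a11 and S100a10. The promoter windows of the 4 members with the widest differences between groups are shown, each from 250 bases before to 50 bases after the RefSeq start on assembly GRCm38.p6. S100a4 (chr3:90603520-90603819, plus strand), S100a6 (chr3:90612644-90612943, plus strand), S100a8 (chr3:90668821-90669120, plus strand) and S100a9 (chr3:90695672-90695971, minus strand) lie close together on the chromosome, and S100a8 and S100a9 are read from opposite strands. They are printed 5′ to 3′ on the strand of the gene, with the only match to a searched motif in capitals.
S100a4: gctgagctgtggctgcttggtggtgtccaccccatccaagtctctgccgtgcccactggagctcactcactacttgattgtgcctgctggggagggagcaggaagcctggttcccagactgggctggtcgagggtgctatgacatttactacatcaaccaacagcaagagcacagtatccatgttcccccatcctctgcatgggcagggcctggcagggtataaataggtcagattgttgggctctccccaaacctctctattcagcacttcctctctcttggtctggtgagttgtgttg
S100a6: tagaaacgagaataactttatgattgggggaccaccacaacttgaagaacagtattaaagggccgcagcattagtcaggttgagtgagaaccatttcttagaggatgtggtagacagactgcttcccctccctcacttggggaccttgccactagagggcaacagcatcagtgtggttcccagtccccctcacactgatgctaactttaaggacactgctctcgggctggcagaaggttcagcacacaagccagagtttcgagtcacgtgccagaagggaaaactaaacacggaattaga
S100a8: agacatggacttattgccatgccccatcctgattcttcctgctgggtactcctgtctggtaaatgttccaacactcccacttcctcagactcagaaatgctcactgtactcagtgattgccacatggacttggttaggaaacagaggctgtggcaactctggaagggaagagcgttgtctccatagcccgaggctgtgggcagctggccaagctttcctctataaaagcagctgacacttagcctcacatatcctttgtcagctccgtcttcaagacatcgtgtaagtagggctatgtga
S100a9: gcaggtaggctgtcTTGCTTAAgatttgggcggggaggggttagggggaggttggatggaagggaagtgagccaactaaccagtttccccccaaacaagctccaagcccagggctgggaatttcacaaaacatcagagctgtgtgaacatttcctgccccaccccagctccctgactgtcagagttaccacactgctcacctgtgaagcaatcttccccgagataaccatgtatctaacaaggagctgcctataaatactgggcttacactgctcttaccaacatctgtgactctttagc

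Windows were found for 7 of the 8 members, all but S100a10, and 3 motifs were searched in them on both strands. The AP-1 element TGACTCA, also the core of the sites that Bach and Maf proteins bind, was present in 5.2% of 32851 promoter windows of the same length, and of the members in the window of S100a11, which held it on the minus strand 136 and 38 bases before the start. The core TGACNNNGC of the antioxidant response element, in 12.4% of all windows, matched no member's window. The C/EBP core TTGCNNAA, in 10.8% of all windows, matched S100a9 (TTGCTTAA, 236 bases before the start). The windows of S100a1 and S100a13, which are transcribed away from each other, overlap on opposite strands, so that these genes are close neighbours. A match describes letters in the window and not a bound site.

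Levels are given as log2 of the processed signal over the array's 75th percentile, so 0 stands for a spot as bright as that percentile. Levels of different probes were not set against each other, and CLP and MPP RNA was amplified in 2 rounds while FoB RNA was amplified with another kit, so that cell type and preparation cannot be told apart across experiments. Of all spots, 50.9 to 58.8% were well above background on FoB arrays, 62.6 to 81.4% on MPP arrays and 66.8 to 81.5% on CLP arrays. Bach2 itself was at 3.49, 3.06 and 3.55 in WT FoB and at −0.07, −1.01 and −0.09 in Bach2KO FoB, 13.5-fold lower (adjusted p = 0.000918, limma). It differed by −2.11 on the log2 scale in DD CLPs (adjusted p = 0.999) and by 1.15 with the Bach2 vector (adjusted p = 0.775), neither of which passed. In B220+ cells Bach2 was at −2.75, −2.49 and −4.10, which overlapped the control-vector arrays (−3.87, −2.96 and −2.15). Bach1 was at 1.87, 1.96 and 2.17 in WT and at 2.41, 1.14 and 0.88 in DD CLPs, with overlap. All 7 B cell markers of the list used here were well above background on every FoB array, and all 4 lymphoid progenitor markers on every CLP array. In the sorted B220+ cells Ms4a1, which encodes CD20, was on no array well above background. The summed B cell marker level there was 9.57 to 15.5 times the 75th percentile, against 213 to 730 in FoB.

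Of the 8 members 6 were well above background on all 21 arrays, S100a9 on 19 and S100a8 on 18. The range of group means was widest for S100a9 (8.58 on the log2 scale), S100a4 (8.32) and S100a8 (8.14), followed by S100a6 (5.36) and S100a1 (3.31). It was narrower for S100a10 (1.63) and S100a11 (1.59) and narrowest for S100a13 (0.62). The members thus run from genes with very wide differences among the groups to a gene with nearly flat group means. S100a6 had its highest mean in Bach2KO FoB (4.17) and its lowest in WT FoB (−1.19), the only member whose extremes were both FoB groups. S100a4 was highest in control-vector MPPs (5.36) and lowest in WT FoB (−2.96), and S100a8 and S100a9 were highest in the B220+ cells (3.81 and 5.72) and lowest in WT CLPs (−4.33 and −2.86).

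In order of its means, S100a6 ran from Bach2KO FoB (4.17) through B220+ cells and control-vector MPPs (3.28 each), Bach2-vector MPPs (2.20), WT CLPs (1.21) and DD CLPs (1.09) to WT FoB (−1.19). Arrays of Bach2KO FoB, B220+ cells and control-vector MPPs overlapped from one group to the next, as did WT and DD CLPs, and the other steps had no overlap. S100a4 ran from control-vector MPPs (5.36) through B220+ cells (5.27), Bach2-vector MPPs (4.34), DD CLPs (2.69), WT CLPs (2.41) and Bach2KO FoB (−0.40) to WT FoB (−2.96), with overlap only between the first 2 groups and between the CLP groups. For S100a8 the only step free of overlap was that from control-vector MPPs (3.75) to Bach2KO FoB (2.37). For S100a9 such steps lay between B220+ cells (5.72) and control-vector MPPs (4.76) and between Bach2-vector MPPs (4.02) and WT FoB (0.97). Every step overlapped for S100a11 and S100a13, and for S100a1 and S100a10 every step but the last, which was that between the FoB genotypes. 

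**Figure D1:**
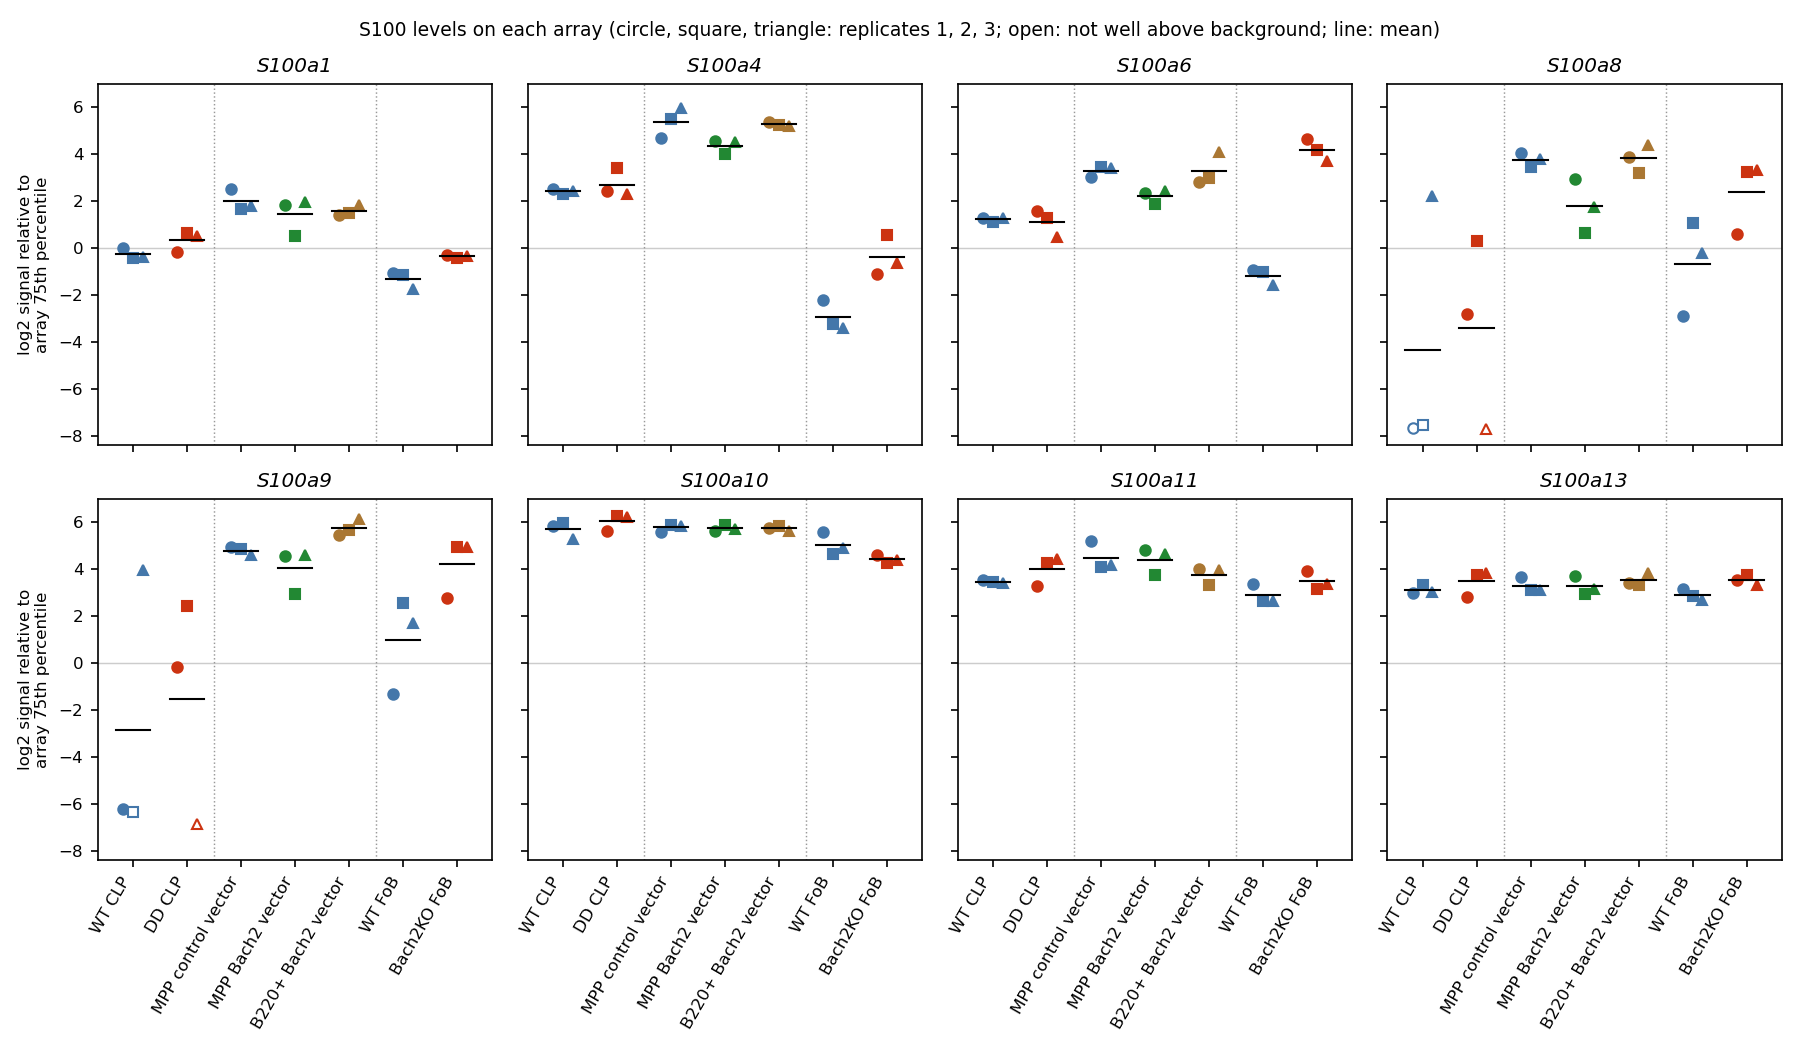
Levels of the 8 S100 genes on each of the 21 arrays, as log2 signal over the 75th percentile of its array (vertical axis), in 7 groups of 3 arrays (horizontal axis); lines are group means and open symbols were not well above background. S100a10, S100a11 and S100a13 stay within a narrow band, S100a8 and S100a9 spread widely among CLP arrays, and the Bach2KO FoB arrays of S100a6 (3.70 to 4.63) lie far above the WT ones (−1.60 to −0.93).

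In follicular B cells the comparison asks what loss of Bach2 does to B cells stimulated through their receptor. S100a6 and S100a4 rose in Bach2KO cells, S100a6 by 40.9-fold and S100a4 by 5.88-fold. S100a8 and S100a9 were 8.31-fold and 9.41-fold higher on average. They did not pass the test without a block, in which their wide spread among arrays of 1 genotype counts as error. With arrays paired by replicate number as a block both passed, as given below. Without a block, 2 of the 8 members passed at an adjusted p under 0.05 over 13073 genes, both higher, where 2.72% of all genes passed (2.21% higher). Of the members, 7 were higher and 1 lower in Bach2KO cells, with a median difference of 1.76 against −0.16 over all genes.

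S100a6, also called calcyclin, was at −0.93, −1.03 and −1.60 on the WT FoB arrays and at 4.63, 4.17 and 3.70 on the Bach2KO ones. The groups were far apart, with each genotype's arrays close together. The difference of 5.35 ± 0.36 on the log2 scale (SE, n = 3 arrays per group; adjusted p = 0.000197, limma) was the 12th highest of 13073 genes. Pairs of arrays with the same replicate number differed by 5.56, 5.20 and 5.30, nearly the same amount each time. S100a6 passed in all 15 settings tried, with differences from 4.51 to 5.59. Among them the deposited value table and the second-probe setting could not change its difference. The table held the same intensities, and S100a6 has no second probe.

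S100a4, which binds non-muscle myosin, was at −2.23, −3.23 and −3.42 in WT FoB and at −1.10, 0.54 and −0.64 in Bach2KO FoB. The groups did not overlap, but the first array of each genotype lay nearest to the other group. The processed signals of S100a4 in WT FoB were only 51.1, 20.8 and 20.1, where the medians of these arrays were 13.11, 16.08 and 16.44. The difference was 2.56 ± 0.50 (adjusted p = 0.0295, limma), and same-numbered arrays differed by 1.13, 3.76 and 2.78. The second probe gave −2.62, −1.89 and −2.39 in WT and −1.26, 0.24 and −1.0 in Bach2KO cells, also with no overlap, and a smaller difference of 1.62 ± 0.44 that did not pass (adjusted p = 0.123, limma). The call of S100a4 passed in 7 of 15 settings. It was lost without WT replicate 2 (adjusted p = 0.0882) or 3 (0.0996) and without Bach2KO replicate 2 (0.0673) or 3 (0.125), and under normexp background correction the difference was 1.26 (adjusted p = 0.313).

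Some genes of the marker lists also differed between these arrays. Hba-a1, an erythroid gene that encodes alpha globin, was at −2.24, 0.31 and 0.05 in WT and at 3.99, 1.74 and 3.61 in Bach2KO FoB, 13.3-fold higher (adjusted p = 0.0391, limma). The erythroid gene Car1 differed by 0.68 (adjusted p = 0.774), and Klf1 was well above background on no FoB array. Ly6a, which encodes Sca-1 and is a gene of the stem and multipotent progenitor list, was already at 2.56, 2.48 and 2.23 in WT FoB. It rose 9.02-fold in Bach2KO FoB (adjusted p = 0.000826, limma), while Cd34 was well above background on no FoB array. Flt3, of the lymphoid progenitor list, fell by 1.68 (adjusted p = 0.0223). None of the 7 B cell genes passed (0 of 7), 6 of them with a lower mean in Bach2KO cells, and their summed level was 400 to 730 in WT and 213 to 351 in Bach2KO FoB. The part of other cells in the S100a6 and S100a4 values was not tested.

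S100a8 was at −2.89, 1.06 and −0.22 in WT FoB and at 0.58, 3.21 and 3.33 in Bach2KO FoB. One WT array lay above the lowest Bach2KO array, so the groups overlapped, and replicate 1 was the lowest of both genotypes. S100a9, its partner in calprotectin, was at −1.33, 2.55 and 1.69 in WT and at 2.77, 4.92 and 4.92 in Bach2KO cells. Its groups did not overlap, though by a small margin, and replicate 1 was again lowest in both. Between arrays of the same number S100a8 differed by 3.48, 2.15 and 3.54 and S100a9 by 4.11, 2.37 and 3.23, higher in Bach2KO cells each time. Without the block the differences were 3.06 ± 1.03 for S100a8 (adjusted p = 0.248, limma) and 3.23 ± 0.97 for S100a9 (adjusted p = 0.168). With the replicate number as a block they were 3.06 ± 0.26 (adjusted p = 6.05e-07) and 3.23 ± 0.27 (adjusted p = 5.33e-07). Both also passed with the slide as a block (adjusted p = 0.00076 and 0.000555, limma). They passed without Bach2KO replicate 1 as well (adjusted p = 0.0238 and 0.0249), where the difference was 3.95 for each. These were the only passes, 3 of 15 settings for each gene. Over the 15 settings the difference ran from 1.95 to 3.95 for S100a8 and from 2.08 to 4.02 for S100a9. The adjusted p reached 0.678 for S100a8 and 0.538 for S100a9 (limma).

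Of 10 neutrophil granule genes 6 were tested in FoB and 0 passed, where 2.72% of all genes passed. In Bach2KO cells 5 had a higher mean and 1 a lower one, with a median difference of 2.33 against −0.16 over all genes. Camp, which encodes the granule peptide cathelicidin, was at −3.61, −0.65 and −1.42 in WT FoB and at −0.41, 1.75 and 1.52 in Bach2KO FoB, lowest in replicate 1 of both genotypes, a difference of 2.85 (adjusted p = 0.135, limma). The granule genes Ltf and Ngp differed by 3.02 (adjusted p = 0.159) and 3.26 (adjusted p = 0.169), Lcn2 by 1.73 (adjusted p = 0.0984) and Mmp8 by 1.81 (adjusted p = 0.488). Elane, which encodes neutrophil elastase, was at −0.23, 2.88 and 2.01 in WT and at 0.42 and 2.14 on Bach2KO replicates 1 and 3, a difference of −0.27 (adjusted p = 0.922). Its spot was left out as an outlier on Bach2KO replicate 2. Of the 10 genes of the neutrophil granule list, 3 to 7 were well above background on WT arrays and 6 to 7 on Bach2KO arrays, and their summed level was 1.25 to 9.22 in WT and 3.38 to 11 in Bach2KO cells, in units of the array's 75th percentile and without Elane on Bach2KO replicate 2. The granule genes Mpo, Prtn3 and Mmp9 were well above background on no WT array, and Ctsg and Mmp9 on no Bach2KO array. The part of other cells in the S100a8 and S100a9 values was not tested, and in RNA from many cells fewer cells of a type and less RNA per cell cannot be told apart. Of 8 monocyte and macrophage genes 6 were tested and 0 passed, 4 with a higher and 2 with a lower mean in Bach2KO cells, with a median difference of 0.94. Their summed level was 14.8 to 17.8 in WT and 8.87 to 18.2 in Bach2KO FoB, and Ccr2 and Fcgr1 were well above background on no FoB array. Lyz2, which encodes a lysozyme, was at −5.42, −3.68 and −3.73 in WT and at −2.74, −1.11 and −0.56 in Bach2KO FoB, 6.99-fold higher (adjusted p = 0.0638, limma). Cd14 was 2.96-fold higher (adjusted p = 0.0702) and Cx3cr1 at least 3.05-fold higher (adjusted p = 0.122), whereas Mpeg1 was 2.75-fold lower (adjusted p = 0.0937). Neither genotype overlapped the other for these 4 genes, where 18.7% of all genes did not overlap. The tested genes Adgre1 and Csf1r did overlap.

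**Figure D2:**
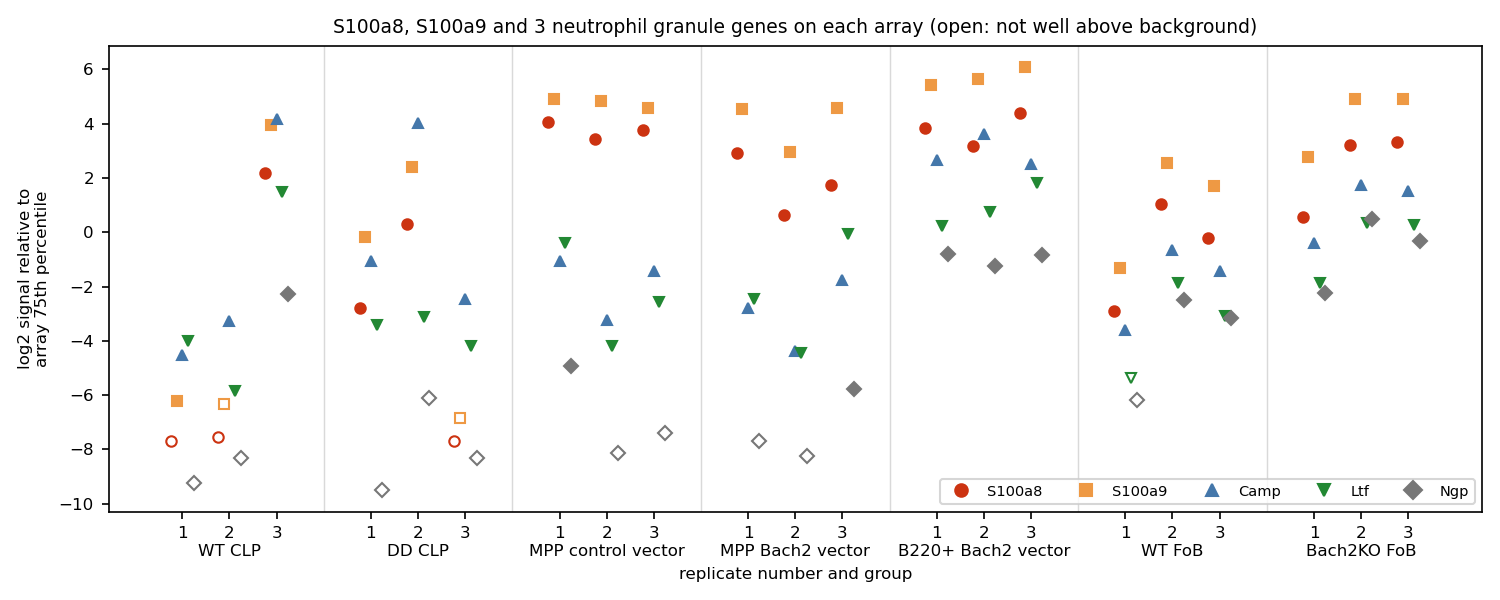
Levels of S100a8, S100a9 and the neutrophil granule genes Camp, Ltf and Ngp on each array, as log2 signal over the 75th percentile of its array (vertical axis), by replicate number and group (horizontal axis); open symbols were not well above background. WT CLP replicate 3 and DD CLP replicate 2 carry high S100a9 and Camp (3.96 and 4.17; 2.40 and 4.02), and FoB replicate 1 is lowest in both genotypes.

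The other 4 members differed less in follicular B cells. S100a10, the partner of annexin A2, was the member that lay lower in Bach2KO cells, at 5.55, 4.62 and 4.87 in WT and 4.58, 4.24 and 4.36 in Bach2KO arrays, with no overlap between groups (difference −0.62 ± 0.34, adjusted p = 0.591, limma). S100a11, a partner of annexin A1, was at 3.36, 2.63 and 2.62 in WT and 3.89, 3.14 and 3.33 in Bach2KO FoB, and these groups overlapped (0.59 ± 0.35, adjusted p = 0.636). S100a13, which binds fibroblast growth factor 1, was at 3.15, 2.84 and 2.66 in WT and 3.50, 3.72 and 3.30 in Bach2KO FoB (0.62 ± 0.30, adjusted p = 0.532). S100a1, best known from muscle, was at −1.08, −1.14 and −1.77 in WT and −0.29, −0.45 and −0.34 in Bach2KO FoB (0.97 ± 0.31, adjusted p = 0.221), and its second probe gave 0.81 ± 0.29 (adjusted p = 0.299). Neither S100a13 nor S100a1 overlapped between genotypes.

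In all, 6 of the 8 members did not overlap between the genotypes, 5 higher and 1 lower, where 18.7% of all genes did not overlap (8.12% higher and 10.6% lower). With the replicate number as a block, all 8 members passed, S100a10 as lower and 7 as higher, where 22.8% of all genes passed (9.58% higher and 13.2% lower). The block gave adjusted p = 0.0428 for S100a10, 0.045 for S100a11, 0.0411 for S100a13 and 0.0049 for S100a1 (limma). With the slide as a block 5 members passed, where 9.15% of all genes passed, and S100a10, S100a11 and S100a13 did not (adjusted p = 0.105, 0.0943 and 0.113). The labels speak of 1 RNA sample of each FoB genotype, so p-values may measure the spread between technical repeats.

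**Figure D3:**
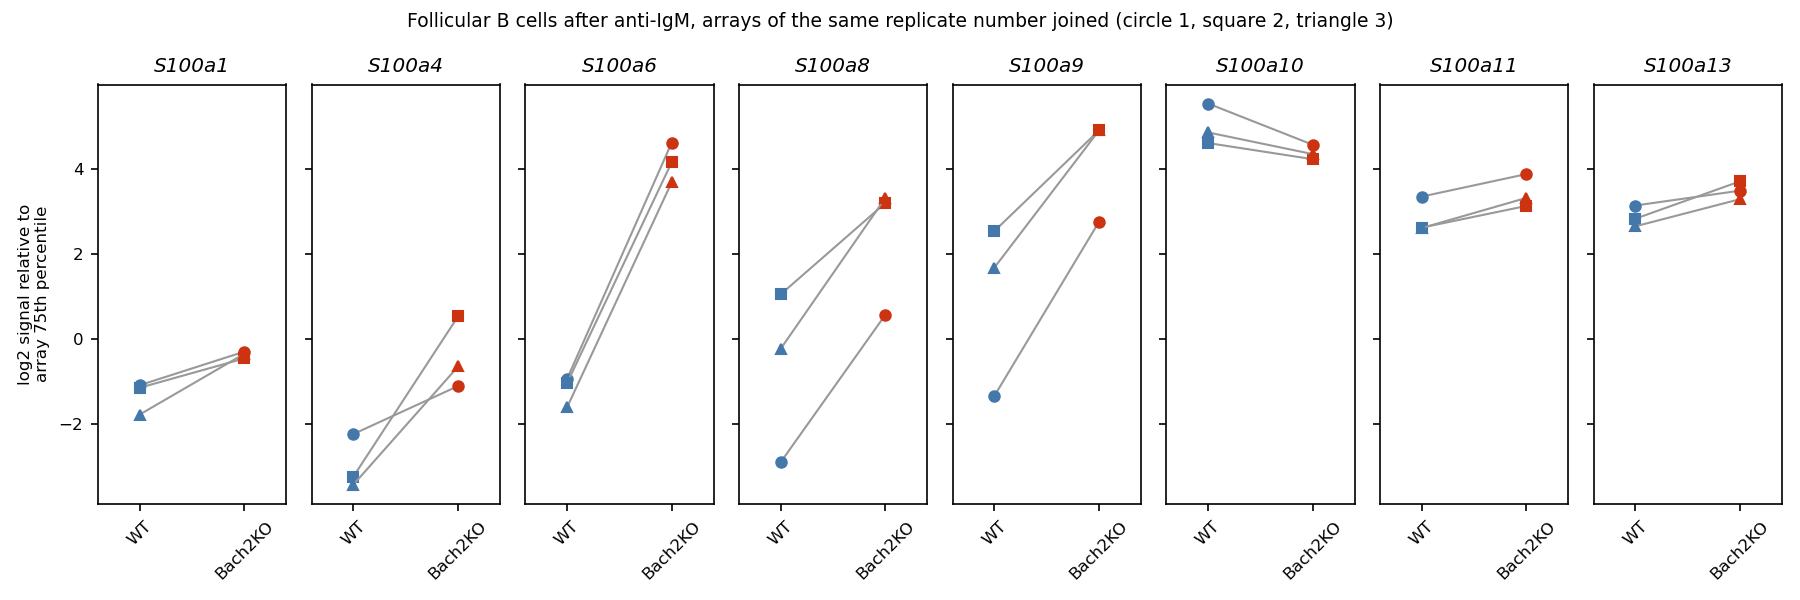
Levels of the 8 members in anti-IgM-stimulated follicular B cells, as log2 signal over the 75th percentile of its array (vertical axis), in WT and Bach2KO arrays (horizontal axis), with arrays of the same replicate number joined. Every line rises for 7 members, steepest and most parallel for S100a6 (5.20 to 5.56), and every line falls for S100a10 (−0.97 to −0.38).

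The vector comparison in MPPs asks what added Bach2 does to multipotent progenitors under multilineage conditions. None of the 8 members passed (0 of 8), where 1.8% of 16991 genes passed and 1472 had an unadjusted p under 0.05. Every member's mean was lower with the Bach2 vector, with a median difference of −0.65 against −0.02 over all genes. S100a4, S100a6 and S100a8 did not overlap between the vectors, 3 of 8 and all lower, where 14.9% of all genes did not overlap (7.29% lower). Their unadjusted p-values were 0.0148, 0.0150 and 0.00514 (limma).

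S100a8 was at 4.05, 3.42 and 3.78 with the control vector and at 2.91, 0.64 and 1.73 with the Bach2 vector. The Bach2-vector arrays were all lower and spread more widely. The difference was −1.99 ± 0.54 (adjusted p = 0.151, limma), and without Bach2-vector replicate 1 it was −2.56 and passed (adjusted p = 0.0442). That was the only pass in 18 settings, over which the difference ran from −2.56 to −1.43 and the adjusted p reached 0.426 (limma). S100a9 was at 4.90, 4.82 and 4.57 with the control vector and at 4.53, 2.94 and 4.59 with the Bach2 vector, where 1 array lay apart from the other 2. Its groups overlapped, with a difference of −0.74 ± 0.43 (adjusted p = 0.898). Of the 10 neutrophil granule genes 1 fell and 9 did not pass, where 1.8% of all genes passed, and 9 of the 10 had a lower mean with the Bach2 vector. The gene that fell was Mmp8, which encodes neutrophil collagenase, at 3.32, 1.7 and 2.11 with the control vector and −2.45, −4.85 and −3.85 with the Bach2 vector, 68.3-fold lower (adjusted p = 0.00241, limma). The summed level of the list was 356 to 385 with the control vector and 274 to 333 with the Bach2 vector. None of 8 monocyte and macrophage genes passed (0 of 8), 7 with a lower mean, and their summed level was 31.5 to 46.2 and 20.7 to 30.6. The share of other cells in these differences was not tested.

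S100a6 was at 3.00, 3.45 and 3.39 with the control vector and at 2.33, 1.85 and 2.41 with the Bach2 vector (−1.08 ± 0.36, adjusted p = 0.291, limma). Each of its Bach2-vector arrays was below each control array. S100a4 was at 4.66, 5.46 and 5.95 with the control vector and at 4.53, 4.00 and 4.50 with the Bach2 vector (−1.02 ± 0.34, adjusted p = 0.290). Here the separation was narrow, because replicate 1 differed by only −0.14, while replicates 2 and 3 differed by −1.46 and −1.45. The second probe of S100a4 gave a like difference of −1.0 ± 0.50 (adjusted p = 0.747).

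The other 4 members had smaller differences between the vectors, none of which passed. S100a10 was at 5.57, 5.86 and 5.83 with the control vector and at 5.62, 5.86 and 5.67 with the Bach2 vector (−0.03 ± 0.22). S100a11 was at 5.19, 4.05 and 4.15 against 4.80, 3.73 and 4.63 (−0.08 ± 0.41). S100a13 was at 3.64, 3.09 and 3.1 against 3.69, 2.93 and 3.14 (−0.02 ± 0.29). Replicate 1 was the highest array of both vector groups for S100a11 and S100a13. S100a1 was at 2.50, 1.67 and 1.78 against 1.82, 0.52 and 1.95 (−0.55 ± 0.41), and its groups overlapped. The adjusted p of each of these 4 was 1.

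**Figure D4:**
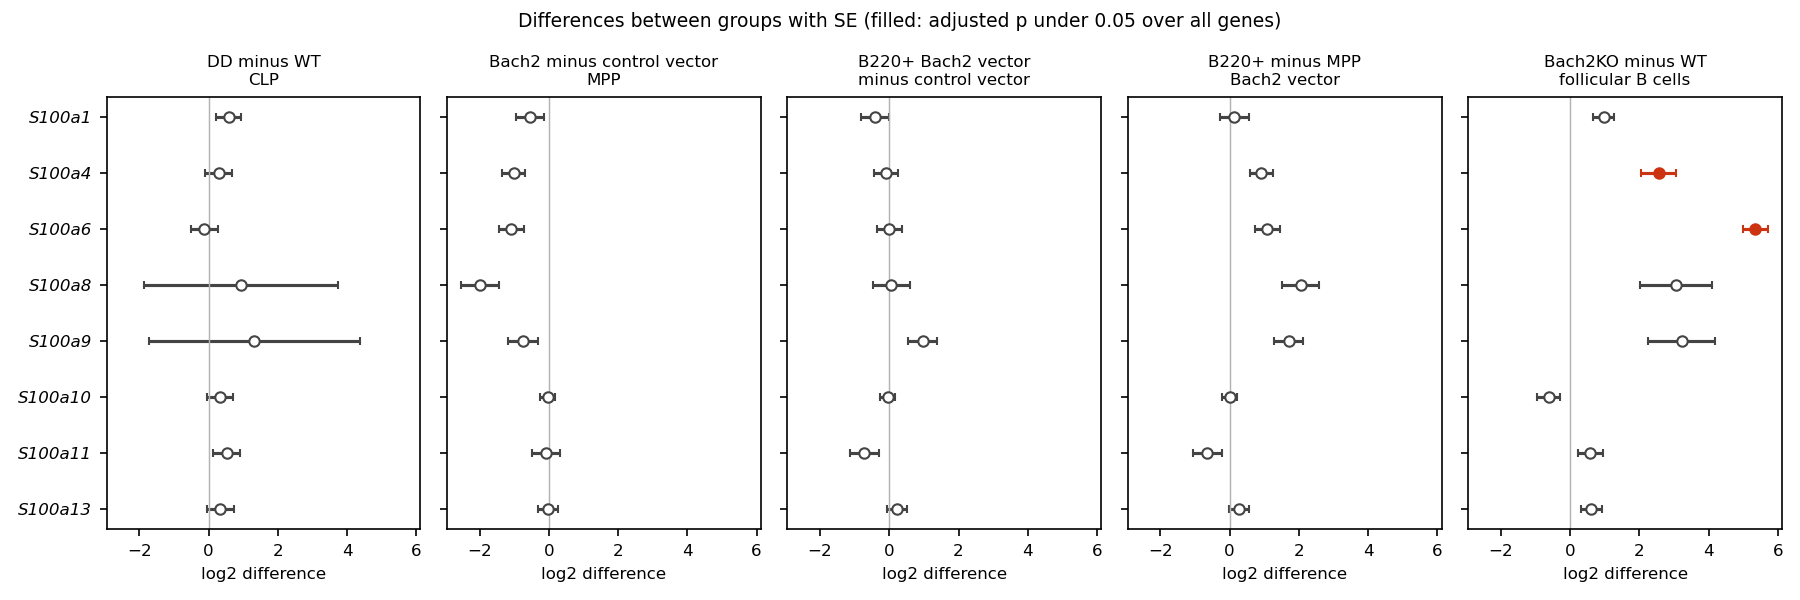
Differences between groups for the 8 members (vertical axis) in the 5 comparisons, as log2 differences with SE (horizontal axis; 3 arrays per group); filled points passed at an adjusted p under 0.05 over all genes. Filled points are S100a4 (2.56) and S100a6 (5.35) in follicular B cells, and the widest error bars are those of S100a8 (2.80) and S100a9 (3.05) in CLPs.

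The B220+ cells grown from Bach2-vector MPPs were compared with the Bach2-vector MPPs and with the control-vector MPPs. These comparisons share arrays with each other and with the vector comparison, so their values are given side by side. All B220+ arrays lay on the slide that held replicate 1 of both MPP groups, and the other MPP arrays lay on another slide. Group and slide are thus partly confounded here. Against Bach2-vector MPPs 0 of 8 members passed, where 6.17% of all genes passed and 4095 had an unadjusted p under 0.05. S100a4, S100a6, S100a8 and S100a9 did not overlap, 4 of 8 and all higher in B220+ cells, where 29.2% of genes did not overlap (7.46% higher). Against control-vector MPPs 0 of 8 passed, where 12.1% of all genes passed and 5083 had an unadjusted p under 0.05, and S100a9 (higher) and S100a11 (lower) did not overlap, 2 of 8 against 34.5% of genes. The median difference of the members was 0.59 and −0.02, against −0.25 and −0.29 over all genes. Under quantile normalization the medians over all genes were −0.07 and −0.08, and the share of passing genes that were higher was 42.8% and 48.6% in place of 32.5% and 38.4%.

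S100a8 was at 3.86, 3.19 and 4.38 in B220+ cells, around the control-vector arrays and above all Bach2-vector ones. The difference was 2.05 ± 0.54 from Bach2-vector MPPs (adjusted p = 0.0609, limma) and 0.06 ± 0.54 from control-vector MPPs (adjusted p = 0.951). The first passed in 4 of 18 settings, among them without Bach2-vector replicate 1 (2.62, adjusted p = 0.018). With the slide as a block the differences of S100a8 were 1.32 ± 0.54 (adjusted p = 0.241, limma) and −0.67 ± 0.54 (adjusted p = 0.508). S100a9 was at 5.44, 5.64 and 6.10, above every array of both other groups. It differed by 1.70 ± 0.43 from Bach2-vector MPPs (adjusted p = 0.0528) and by 0.96 ± 0.43 from control-vector MPPs (adjusted p = 0.174). The first of these passed in 3 of 18 settings. With the slide as a block they were 1.38 ± 0.51 (adjusted p = 0.202, limma) and 0.64 ± 0.51 (adjusted p = 0.509). The granule genes Camp and Ngp rose in B220+ cells, Camp by 5.90 (adjusted p = 0.00252) against Bach2-vector and 4.84 (adjusted p = 0.00382) against control-vector MPPs, and Ngp by 6.28 (adjusted p = 0.0035) and 5.85 (adjusted p = 0.00288), with Ngp well above background on only 1 of 3 arrays of each MPP group. Other granule genes fell, Prtn3, which encodes proteinase 3, by 1.70 (adjusted p = 0.0154) and 2.04 (adjusted p = 0.004), and Mmp8 by 5.19 (adjusted p = 0.00108) against control-vector MPPs. In all, 2 of 10 rose and 1 fell against Bach2-vector MPPs, and 2 rose and 2 fell against control-vector MPPs. Over all genes 6.17% and 12.1% passed. The summed granule level was 278 to 349, and the part of other cells in the S100a8 and S100a9 values was not tested.

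Genes of other marker lists passed in the same cells, where 6.17% of all genes passed against Bach2-vector and 12.1% against control-vector MPPs. Of 4 lymphoid progenitor genes, Dntt, which encodes terminal transferase, rose by 6.83 (adjusted p = 8.26e-06) against Bach2-vector and by 7.13 (adjusted p = 5.66e-06) against control-vector MPPs, Il7r rose by 2.68 (adjusted p = 0.0328) and 4.99 (adjusted p = 0.00116), and Flt3 rose by 2.01 (adjusted p = 0.0163) against control-vector MPPs. Prss34, 1 of 5 mast cell and basophil genes, rose by 6.63 (adjusted p = 0.00261) and 6.93 (adjusted p = 0.00127), and Cd3d, 1 of 5 T and NK genes, by 1.4 (adjusted p = 0.0228) and 2.24 (adjusted p = 0.00155). Csf1r, 1 of 8 monocyte and macrophage genes, rose by 3.38 (adjusted p = 0.0381) against Bach2-vector MPPs.

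S100a6 was at 2.80, 2.98 and 4.08 in B220+ cells and S100a4 at 5.36, 5.24 and 5.20. The S100a4 arrays were close together, whereas replicate 3 of S100a6 was well above the other 2. Against Bach2-vector MPPs S100a6 differed by 1.09 ± 0.36 (adjusted p = 0.116, limma) and S100a4 by 0.92 ± 0.34 (adjusted p = 0.146), and against control-vector MPPs by 0.00 ± 0.36 and −0.09 ± 0.34. S100a4 passed against Bach2-vector MPPs under quantile normalization (1.16, adjusted p = 0.047). With the slide as a block S100a6 differed from Bach2-vector MPPs by 1.16 ± 0.45 (adjusted p = 0.22, limma) and S100a4 by 1.18 ± 0.38 (adjusted p = 0.148). S100a11 was at 3.98, 3.30 and 3.96, lower by 0.72 on average than with the control vector (−0.72 ± 0.41, adjusted p = 0.265). With the slide as a block that difference was −1.29 ± 0.37 (adjusted p = 0.0763, limma). S100a10 was at 5.73, 5.82 and 5.59, within 0.04 of the means of both MPP groups. S100a13 was at 3.39, 3.32 and 3.82 and S100a1 at 1.38, 1.5 and 1.83, both overlapping both MPP groups.

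In CLPs the comparison asks what loss of both repressors does at the first lymphoid stage. No member passed (0 of 8), where 0.00607% of 16466 genes, a single gene, passed and 619 had an unadjusted p under 0.05. No member's groups were free of overlap, where 7.91% of all genes did not overlap. The median difference was 0.44 against 0.04 over all genes, and every member had adjusted p = 0.999 (limma).

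S100a8 and S100a9 varied more among CLP arrays of 1 genotype than between the genotypes. S100a8 was at −7.67, −7.54 and 2.20 in WT CLPs and at −2.80, 0.31 and −7.69 in DD CLPs, and the first 2 WT arrays and the last DD array were not well above background. S100a9 was at −6.21, −6.33 and 3.96 in WT and at −0.17, 2.40 and −6.84 in DD CLPs. For both genes WT replicate 3 was the highest array and DD replicate 3 among the lowest, so the signs turned with the slide. Same-slide differences were 4.86, 7.85 and −9.90 for S100a8 and 6.04, 8.73 and −10.8 for S100a9. The mean differences were 0.94 ± 2.80 and 1.32 ± 3.05. Without WT replicate 3 the difference of S100a9 was 4.73, and without DD replicate 2 it was −0.65, neither of which passed.

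None of the 8 granule genes tested passed (0 of 8), and they did not all follow S100a8 and S100a9 across arrays. Camp was at −4.51, −3.27 and 4.17 in WT and at −1.07, 4.02 and −2.44 in DD CLPs, highest on the arrays where S100a9 was highest in each genotype. The summed neutrophil granule level was 32.2, 35.3 and 56.3 in WT and 43.6, 79.8 and 38.5 in DD CLPs, and its highest array in each genotype was that one too. On WT replicate 3, Ltf (1.5), Lcn2 (1.15), Ngp (−2.28) and Mmp8 (−2.11) were also at their highest of the WT arrays. So were Elane (0.86), Prtn3 (−1.87) and Mmp9 (−3.67). Mpo was highest on WT replicate 1, at 4.72 beside 4.53 and 4.55. Ctsg was highest on WT replicate 2, at 3.36 beside 2.06 and 2.86. On DD replicate 2, Lcn2 (−1.29), Prtn3 (1.15), Ctsg (4.97) and Mpo (4.71) were also at their highest of the DD arrays. Ltf was highest there too, at −3.12 beside −3.42 and −4.20 on the other DD arrays. Ngp and Mmp9 were well above background on no DD array. Mmp8 went the other way, at −6.65 and not well above background on DD replicate 2, beside −4.34 and −4.04. Elane was highest on DD replicate 1, at 2.80 beside 1.72 on DD replicate 2 and 1.11 on DD replicate 3. Lineage-positive cells, Gr-1+ cells among them, were partly removed on beads before the CLP sort. The part of such cells in the S100a8 and S100a9 values was not tested.

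The other 6 members varied less among CLP arrays. S100a6 was at 1.25, 1.11 and 1.28 in WT and at 1.55, 1.25 and 0.48 in DD CLPs (−0.12 ± 0.38). S100a4 was at 2.51, 2.30 and 2.41 in WT and at 2.40, 3.38 and 2.29 in DD CLPs (0.29 ± 0.39), where DD replicate 2 alone stood above the WT arrays. S100a10 was at 5.82, 5.96 and 5.26 against 5.62, 6.25 and 6.20 (0.34 ± 0.37), and S100a11 at 3.51, 3.44 and 3.40 against 3.28, 4.25 and 4.41 (0.53 ± 0.39). S100a13 was at 2.98, 3.32 and 3.02 against 2.80, 3.74 and 3.82 (0.34 ± 0.39), and S100a1 at 0.00, −0.45 and −0.38 against −0.17, 0.61 and 0.50 (0.59 ± 0.36). S100a10, S100a11, S100a13 and S100a1 shared a shape, with DD replicates 2 and 3 above all WT arrays and DD replicate 1 below or among them.

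Among binding partners, receptors and co-receptors of S100 proteins (13 genes, 12 tested in CLPs and MPPs and 11 in FoB), 2 rose in Bach2KO FoB and none fell. Over all genes 2.72% passed there (2.21% higher). Anxa1, the annexin partner of S100a11, was at 1.41, 0.22 and 0.28 in WT and at 3.72, 3.24 and 2.59 in Bach2KO FoB, with no overlap, 5.85-fold higher (adjusted p = 0.0168, limma). Fgf1, the growth factor that S100a13 helps to export, was well above background on no WT FoB array and on 3 of 3 Bach2KO ones, at least 13-fold higher (adjusted p = 0.000918). Anxa2, the partner of S100a10, was at −1.10, −1.57 and −1.39 in WT and at −0.18, 0.06 and −0.24 in Bach2KO FoB, a difference of 1.23 ± 0.30 that did not pass (adjusted p = 0.0748). Anxa2 and S100a10 thus lay on opposite sides in Bach2KO cells. Tlr4, the receptor of calprotectin, differed by −0.08 ± 0.37 in FoB, and Ager, the receptor for advanced glycation end products, was well above background on 1 of 3 WT and 0 of 3 Bach2KO FoB arrays and was not tested there.

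In the vector comparison 0 of 12 partners passed, where 1.8% of all genes passed. Tlr4 differed by −1.97 ± 0.60 (adjusted p = 0.225, limma), Anxa1 by −0.94 ± 0.21 (adjusted p = 0.0754), Anxa2 by −0.15 ± 0.25 and Ager by −0.08 ± 0.27. In B220+ cells 2 of 12 rose and 1 fell against Bach2-vector MPPs, and 1 rose and 1 fell against control-vector MPPs. Over all genes 6.17% and 12.1% passed in these comparisons. Ahnak, a scaffold bound by S100a10 and annexin A2, rose by 3.79 (adjusted p = 0.00607) and 3.80 (adjusted p = 0.00356), and Anxa1 rose by 1.31 (adjusted p = 0.00863) against Bach2-vector MPPs. Ly96, which encodes the Toll-like receptor 4 co-receptor MD-2, fell by 1.18 (adjusted p = 0.0378) and by 2.43 (adjusted p = 0.000834). In CLPs 0 of 12 passed.

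Of 7 transcription regulators of myeloid genes, C/EBP factors among them, 2 of 5 tested rose in Bach2KO FoB and none fell. The share over all genes was 2.72% (2.21% higher). Cebpd was well above background on 0 of 3 WT and 3 of 3 Bach2KO FoB arrays, at least 5.91-fold higher (adjusted p = 0.00868, limma). Cebpb was at −0.83, −0.50 and −1.44 in WT and at 0.94, 0.82 and 0.90 in Bach2KO FoB, 3.50-fold higher (adjusted p = 0.0232). Cebpd was also the 1 regulator of 7 that passed between the vectors, at 4.51, 4.62 and 4.94 with the control vector and 3.28, 2.81 and 2.91 with the Bach2 vector, 3.23-fold lower (adjusted p = 0.0108). Over all genes 1.8% passed between the vectors. Cebpd rose by 0.98 (adjusted p = 0.0491, limma) in B220+ cells against Bach2-vector MPPs, where 6.17% of all genes passed. Cebpb fell by 0.94 (adjusted p = 0.0379) in B220+ cells against control-vector MPPs, where 12.1% of all genes passed. Cebpe, a factor of granulocyte maturation, differed by −0.06 ± 0.40 between the vectors. It was well above background on 0 of 3 WT and 2 of 3 Bach2KO FoB arrays, too few for the test. In CLPs 0 of 7 passed.

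Of 8 other S100 genes with a probe, 5 were tested in CLPs and MPPs and 3 in FoB. S100a5 passed in B220+ cells, where it fell by 1.66 (adjusted p = 0.0102, limma) against control-vector and by 1.98 (adjusted p = 0.0081) against Bach2-vector MPPs. Over all genes 12.1% and 6.17% passed there. No other S100 gene outside the 8 passed in any of the 5 comparisons.

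The members were also compared in shape, by Pearson's r over 21 arrays after each experiment's mean was subtracted, among 14696 genes. These values describe arrays that share their RNA, and CLP arrays with extreme levels weigh heavily in those of S100a8 and S100a9. S100a8 and S100a9 were each other's most alike gene (r = 0.98), followed for both by Hp, which encodes haptoglobin (r = 0.89 and 0.88), and then by Igsf6 for S100a8 and Txk for S100a9 (r = 0.82 each). S100a6 was most like Niban2 (r = 0.93), Fcer1g (r = 0.92), which encodes the common Fc receptor gamma chain, and Adssl1 (r = 0.90). S100a4 was most like Niban2 and Apoe (r = 0.87 each) and Cd300c2 (r = 0.85), and its r with S100a6 was 0.85. The calprotectin pair had an r of only 0.39 to 0.43 with S100a4 and S100a6, although the means of all 4 genes were higher in Bach2KO than in WT FoB.

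S100a10 had negative r with the members that were higher in Bach2KO FoB by the widest margins, −0.59 to S100a8 and S100a9 and −0.55 to S100a6. Its most alike genes were Atp5e (r = 0.94), a subunit of ATP synthase, Mrpl24 (r = 0.92), a mitochondrial ribosomal protein, and Nme2 (r = 0.91), a nucleoside diphosphate kinase. S100a11 was most like Cyren (r = 0.89), Rnasek (r = 0.88) and Phlda1 (r = 0.86), and its r with S100a10 was 0.10. S100a13 was most like Ttll9 (r = 0.83), Capg (r = 0.82), an actin-capping protein, and Lst1 (r = 0.81). S100a1 was most like Ly6a (r = 0.82), which encodes the stem cell antigen Sca-1, Card19 (r = 0.79) and S100a11 (r = 0.77). The neighbours S100a1 and S100a13 had an r of 0.72 with each other.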

How the data were processed

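The 8 members and the gene lists were chosen with earlier results of these data known. The deposited values analysed are background-corrected processed spot intensity values, made per the file headers with Feature Extraction 10.7.3.1 (the submitters' processing notes name 9.1). The deposited value table held the same intensity values. From them log2 values were computed less the 75th percentile of each array's non-control spots; the deposited files were linear, not log2. Outlier-marked spots were dropped, and repeated spots of 1 probe averaged. Of 55681 probes 26413 matched 20018 gene symbols through RefSeq accessions, and 29268 did not and were not used. Genes with 3 or more arrays of an experiment well above background were tested with limma 3.58.1 (lmFit and eBayes, R 4.3.3), within each experiment, with Benjamini-Hochberg adjustment over all its tested genes; adjusted p-values under 0.05 passed. One fit covered the 9 MPP arrays. Where a group was nowhere above background, a fold is a lower bound against the dimmest signal well above background. The fit was tested on simulated data.

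All 8 members are named. Of the other lists, genes that passed are named, those of the cell type markers included, as are Anxa1, Anxa2, Tlr4, Ager, Cebpd and Cebpe, and for each member the 3 genes most alike in shape. Neutrophil genes and the summed levels are given beside members they move with, and marker genes named though they did not pass were chosen after their values were seen.

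Replicate numbers come from the labels. Deviations from the group means of same-numbered arrays correlated at 0.43, 0.39 and 0.22 in CLPs. Between the vectors they correlated at 0.65, 0.41 and 0.30, and in FoB at 0.86, 0.72 and 0.54. The numbers did not pair arrays in the B220+ comparisons. In CLPs the number is the slide. Between the vectors and in FoB, number 1 lay on one slide and numbers 2 and 3 on another. Arrays numbered 2 and 3 of opposite groups correlated at 0.31 and 0.22 between the vectors and at 0.50 and 0.23 in FoB. Pairing by number and an effect of the slide are thus not fully told apart. Promoter sequences are RefSeq's, assembly GRCm38.p6. The files have no mean-signal column, so the normexp alternative used the median signal. Alternatives were that correction, quantile normalization, other detection filters, the second probe, the deposited value table, outlier spots kept, slide and replicate blocks, and leaving out each array. The number of arrays limits the precision.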

Additional observations from a re-analysis of the deposited data

How the results depend on the processing

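No member's difference that passed changed direction under any alternative. Among the alternatives 639 member differences stayed on their side of the threshold, 20 came to pass and 8 ceased to pass, all 8 of them S100a4 in follicular B cells. The 639 include settings that could not move a difference, the deposited value table and the second-probe setting for members without a second probe. In follicular B cells the 2 members that passed became 1 under normexp background correction, quantile normalization, no filter on detection and the second probe. They became 5 with the slide as a block and 8 with the replicate block, where pairing by number and slide are not fully told apart. Leaving out 1 array gave 1 to 4, with 4 without Bach2KO replicate 1. For B220+ cells against Bach2-vector MPPs the 0 became 2 under normexp (S100a8 and S100a9), quantile normalization (S100a4 and S100a9) and a filter for all arrays (S100a8 and S100a9), and 1 with the replicate block (S100a8), although the numbers do not pair these arrays; leaving out 1 array gave 0 to 1. In the vector comparison leaving out 1 array gave 0 to 1, and the replicate block changed no call. CLPs and B220+ cells against control-vector MPPs had 0 under every alternative, blocks and left-out arrays included.

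Over all genes, 356 passed in follicular B cells, against 123 under normexp, 1196 with the slide block and 2980 with the replicate block, of which 42.0% were higher in place of 81.2% (57.1% with the slide block); leaving out 1 array gave 110 to 371. The 305 of the vector comparison became 96 to 520, the 1048 of B220+ cells against Bach2-vector MPPs 448 to 1699, the 2056 against control-vector MPPs 1028 to 2638, and the 1 of CLPs 0 to 28. The causes of these shifts were not tested. Signals near background limit S100a8 and S100a9 in CLPs, and low WT signals limit S100a4 in follicular B cells.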
